A study of Homo sapiens with 17 samples.

Results

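Occupancy by Flag-tagged FOXA1, FOXA2, FOXA3, their deletion mutants, SOX2 and a SOX2 fusion was described at 9 genes known as FOXA1 targets in hormone-responsive tissue. The genes are GATA3, TFF1, TFF3, GREB1, XBP1 and MYB, which mark luminal breast cells, and KLK2, KLK3 and TMPRSS2, which mark the prostate. A peak was assigned to a gene when its summit, the position of its highest signal, lay within 100 kb of the gene's RefSeq span on GRCh38. Of 208775 peaks in 8 combined lists, 125 met this rule. Their windows cover 1758 kb in 7 separate loci, since the windows of TFF1 and TFF3, and those of KLK2 and KLK3, overlap.

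The chromatin came from U2OS, a human osteosarcoma cell line, that is, cells of a bone tumour and not of breast or prostate. Stable lines carried a Tet-on construct, in which doxycycline switches on a transgene, and every factor group was treated with 500 ng/ml doxycycline for 4 days. The 8 groups, each with 2 biological replicates, expressed FOXA1, FOXA2 or FOXA3 at full length, the same proteins without the C-terminal domain (CTD), SOX2 at full length, or SOX2 joined to the CTD of FOXA2. One further sample, the input, has no genotype or treatment in its labels. Immunoprecipitation used an antibody against the Flag tag, so the untagged FOXA proteins of the host cells were not measured, and whether a line is a clone or a pool is not given in the sources used here. No expression values were used here, so the identity of the cells was not checked against markers, and it is not known from these data whether any of the 9 genes is transcribed in them.

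FOXA proteins are forkhead factors that recognise a short DNA core and can bind it in compacted chromatin, which is why they are called pioneer factors. In luminal breast cells FOXA1 opens sites at which the estrogen receptor then binds, and in prostate cells it takes part in the response to androgen. TFF1, TFF3 and GREB1 are classical estrogen-induced genes, whereas KLK2, KLK3 and TMPRSS2 are classical androgen-induced genes.

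Of the promoters in the RefSeq table used here, the MYB, KLK2 and KLK3 windows bear most on the peaks described below. The MYB promoter is shown because a FOXA1 peak without the CTD lies over it. Those of the kallikrein genes are shown because the nearest peaks lie kilobases away from them. Each is the stretch of 250 bases before the start site on the plus strand, 5′ to 3′, of GRCh38.p14. They lie at chr6:135181058-135181307 (MYB), chr19:50873189-50873438 (KLK2) and chr19:50854665-50854914 (KLK3). Capitals mark the forkhead core in MYB and an androgen response half-site in KLK3.
MYB: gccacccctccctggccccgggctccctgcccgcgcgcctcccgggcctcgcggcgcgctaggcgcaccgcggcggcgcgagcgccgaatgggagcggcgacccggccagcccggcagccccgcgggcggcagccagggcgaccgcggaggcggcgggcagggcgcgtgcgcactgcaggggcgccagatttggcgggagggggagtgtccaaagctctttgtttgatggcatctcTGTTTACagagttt
KLK2: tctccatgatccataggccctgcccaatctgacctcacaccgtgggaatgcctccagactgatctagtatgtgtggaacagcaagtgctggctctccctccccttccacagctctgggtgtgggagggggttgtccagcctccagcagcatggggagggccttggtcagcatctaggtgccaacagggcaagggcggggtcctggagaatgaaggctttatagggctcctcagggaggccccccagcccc
KLK3: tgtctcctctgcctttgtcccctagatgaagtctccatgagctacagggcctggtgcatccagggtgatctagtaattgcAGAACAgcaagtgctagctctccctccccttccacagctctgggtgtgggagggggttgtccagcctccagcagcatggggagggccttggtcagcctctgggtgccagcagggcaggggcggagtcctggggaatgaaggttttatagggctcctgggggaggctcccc

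The search used the forkhead core TGTTTAC or TATTTAC, the androgen half-site AGAACA and the palindromic estrogen response element, each on both strands. Windows of 300 bases, from 250 before to 50 after the start site, were held for 5 of the 9 genes: 6 windows for GATA3, 2 for XBP1 and 1 each for MYB, KLK2 and KLK3. The forkhead core was found in MYB only, with its first base at −14 relative to the start site. It occurs in 4.8% of 22132 promoters of coding genes. The androgen half-site was found in KLK3 only, with its first base at −170, and occurs in 11.7% of these promoters. The KLK2 and KLK3 windows are identical at 245 of 312 aligned positions (78.5%), but the KLK2 window does not hold these 6 letters. Before the shared stretch gcaagtgct, KLK2 has ggaaca where KLK3 has AGAACA, so the words differ in the first base only. The search took exact words, so a near match such as this was not counted. The estrogen element was found in none of the 11 windows and occurs in 0.0361% of all promoters.

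FOXA1 and FOXA2 peaks lay within 100 kb of most of the 9 genes, FOXA3 peaks near 3, and no peak of the combined SOX2 list near any. With FOXA1 at full length 6 genes had a peak, all but KLK2, KLK3 and TMPRSS2, against 83.4% of 19974 protein-coding genes. Without the CTD, FOXA1 had a peak at 7 genes, all but TFF3 and TMPRSS2, where 82.3% of coding genes had one. FOXA2 had a peak at the same 7 genes at full length and without the CTD, with backgrounds of 85% and 86.4%. FOXA3 had one at GATA3, TFF1 and XBP1 in either form, with backgrounds of 34.7% and 38.9%. The fusion had one at GATA3, GREB1 and XBP1, with a background of 35.5%, and SOX2 alone at none, with a background of 1.46%. A peak within 100 kb is thus common among coding genes, and 6 or 7 of 9 was no higher than the share over all of them. TMPRSS2 was the 1 member with no peak in any of the 6 FOXA lists, as were 5.8% of coding genes.

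**Figure D1:**
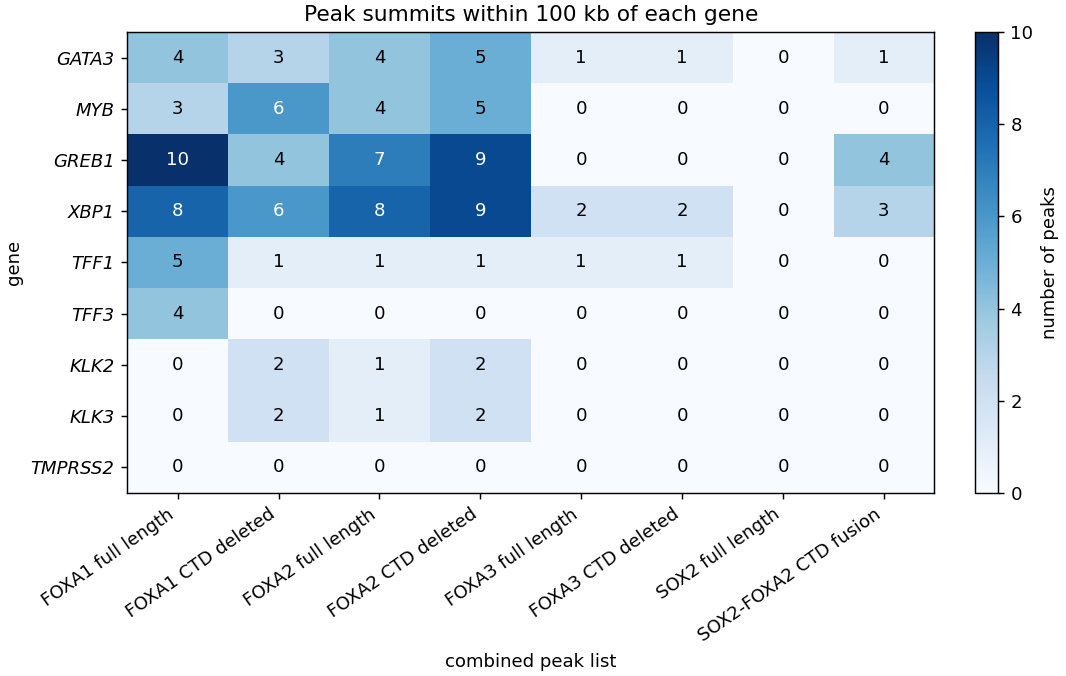
Number of peak summits within 100 kb of each of the 9 genes (rows) in each of the 8 combined lists (columns), with darker cells for more peaks. GREB1 and XBP1 have the highest counts, up to 10 and 9, TMPRSS2 has 0 throughout, and the FOXA1 full-length list has no peak at KLK2 or KLK3.

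**Figure D2:**
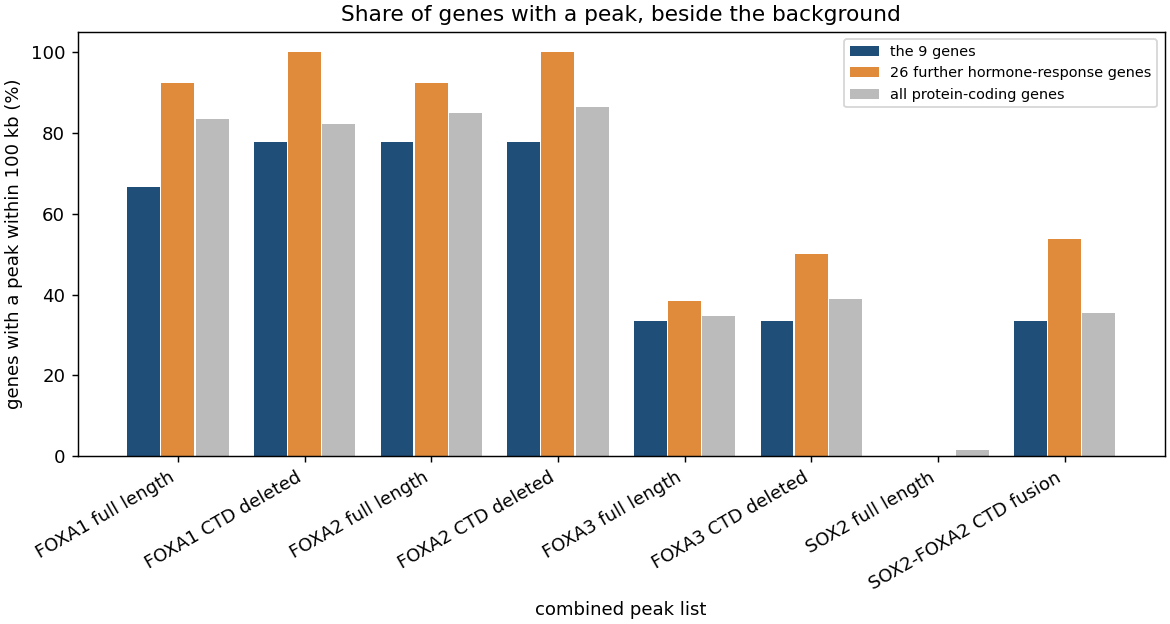
Percent of genes with at least 1 peak within 100 kb in each combined list, for the 9 genes (dark bars), 26 further hormone-response genes (orange) and all 19974 protein-coding genes (grey). In the FOXA1 and FOXA2 lists the dark bars stand below the grey ones, while the orange bars reach 92.3% to 100%.

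In number, 31 peaks of full-length FOXA1 and 22 of FOXA1 without the CTD fell near these genes. FOXA2 had 25 and 31, FOXA3 had 4 and 4, and the fusion had 8. Per megabase of window, full-length FOXA1 had 17.6 peaks, above the mean of 12.8 over the windows of all coding genes, and FOXA1 without the CTD had 12.5, below its mean of 14.3. FOXA2 had 14.2 and 17.6 per megabase beside means of 15.3 and 17.2. The medians over coding-gene windows are lower, at 9.85 and 9.93 for FOXA1 and 12.6 and 14 for FOXA2, and all 4 densities are above them. The densities of the 9 genes pool all peaks over the merged windows, so they are not medians over genes. By gene, the median count was 4 and 2 for FOXA1 and 1 and 2 for FOXA2, beside 3 over coding genes in each list. FOXA3 had 2.28 in either form beside 1.99 and 2.33, and the fusion had 4.55 beside 2.42. Each group has 1 combined list, so these densities have no replicate error and no test was possible.

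The lists were deposited at different limits of the irreproducible discovery rate (IDR), which measures how far the replicates agree on a peak. The FOXA1 list at full length reaches an IDR of 0.2, and that without the CTD ends at 0.0501. For FOXA2 the limits are 0.351 and 0.25, for FOXA3 0.1 and 0.01, for SOX2 0.1 and for the fusion 0.92. The −log10 p of a peak, given below for both replicates, also rises with sequencing depth, so values from different lists are set side by side as descriptions. The direction of the FOXA1 comparison turned with this limit. At the stricter limit of the pair, 13 peaks of full-length FOXA1 stood against 22 without the CTD, where the lists as deposited gave 31 against 22. For FOXA2 the stricter limit gave 16 against 31, the same direction as 25 against 31.

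Gene by gene, the deposited FOXA1 lists held more peaks at full length for 5 members, GATA3, TFF1, TFF3, GREB1 and XBP1, as for 33.3% of coding genes. They held more without the CTD for KLK2, KLK3 and MYB, as for 40.5% of coding genes. At the stricter limit only TFF1 and TFF3 had more at full length, where 3.28% of coding genes did. GATA3, XBP1, KLK2, KLK3 and MYB had more without the CTD, as did 74.5% of coding genes, and GREB1 had 4 in each. The direction was the same under either limit for TFF1, TFF3, KLK2, KLK3 and MYB. The difference at TFF1 and TFF3 rests, at the stricter limit, on 1 peak that lies in both windows, so they are 1 observation there. For FOXA2, 0 members had more peaks at full length (background 30.4%) and 6 had more without the CTD (background 44.4%). At the stricter limit these counts were again 0 and 6, with backgrounds of 12.2% and 64.3%. Those 6 were GATA3, GREB1, XBP1, KLK2, KLK3 and MYB at either limit, while TFF1 had 1 peak in each FOXA2 list.

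After merging overlapping peaks of all lists, the windows held 62 sites, of which 55 had a FOXA peak and 7 a peak of the fusion alone. Of the 55 FOXA sites, 27 were held by 1 FOXA list, 9 by 2, 9 by 3, 7 by 4, 1 by 5 and 2 by all 6. All 4 FOXA1 and FOXA2 lists shared 8 of them (14.5%, exact 95% interval 6.5 to 26.7), where 9.12% of 103767 FOXA sites over chromosomes 1 to 22 and X were so shared. Full-length FOXA1 was the only holder of 11 (20.0%, 10.4 to 33.0), beside 9.05% over all sites. Of these 11 peaks, 10 have an IDR of 0.0694 to 0.194, past the limit of the CTD-deleted list, and 1 is within it. These intervals cover counting error over sites only.

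Most sites lay away from the genes themselves, and most of the length of the windows lies outside the gene spans too. How many sites the span lengths alone would give was not computed. Of the 55, 9 had their strongest summit inside a member's span, 6 lay outside but within 10 kb, 17 at 10 to 50 kb and 23 at 50 to 100 kb. In 18 the summit was inside another coding gene, among them LPIN1 near GREB1, ZNRF3 and CHEK2 near XBP1 and UBASH3A near TFF1. Nearness to a gene does not show that a site acts on it. The gene table holds no exons, so exon and intron were not told apart.

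**Figure D3:**
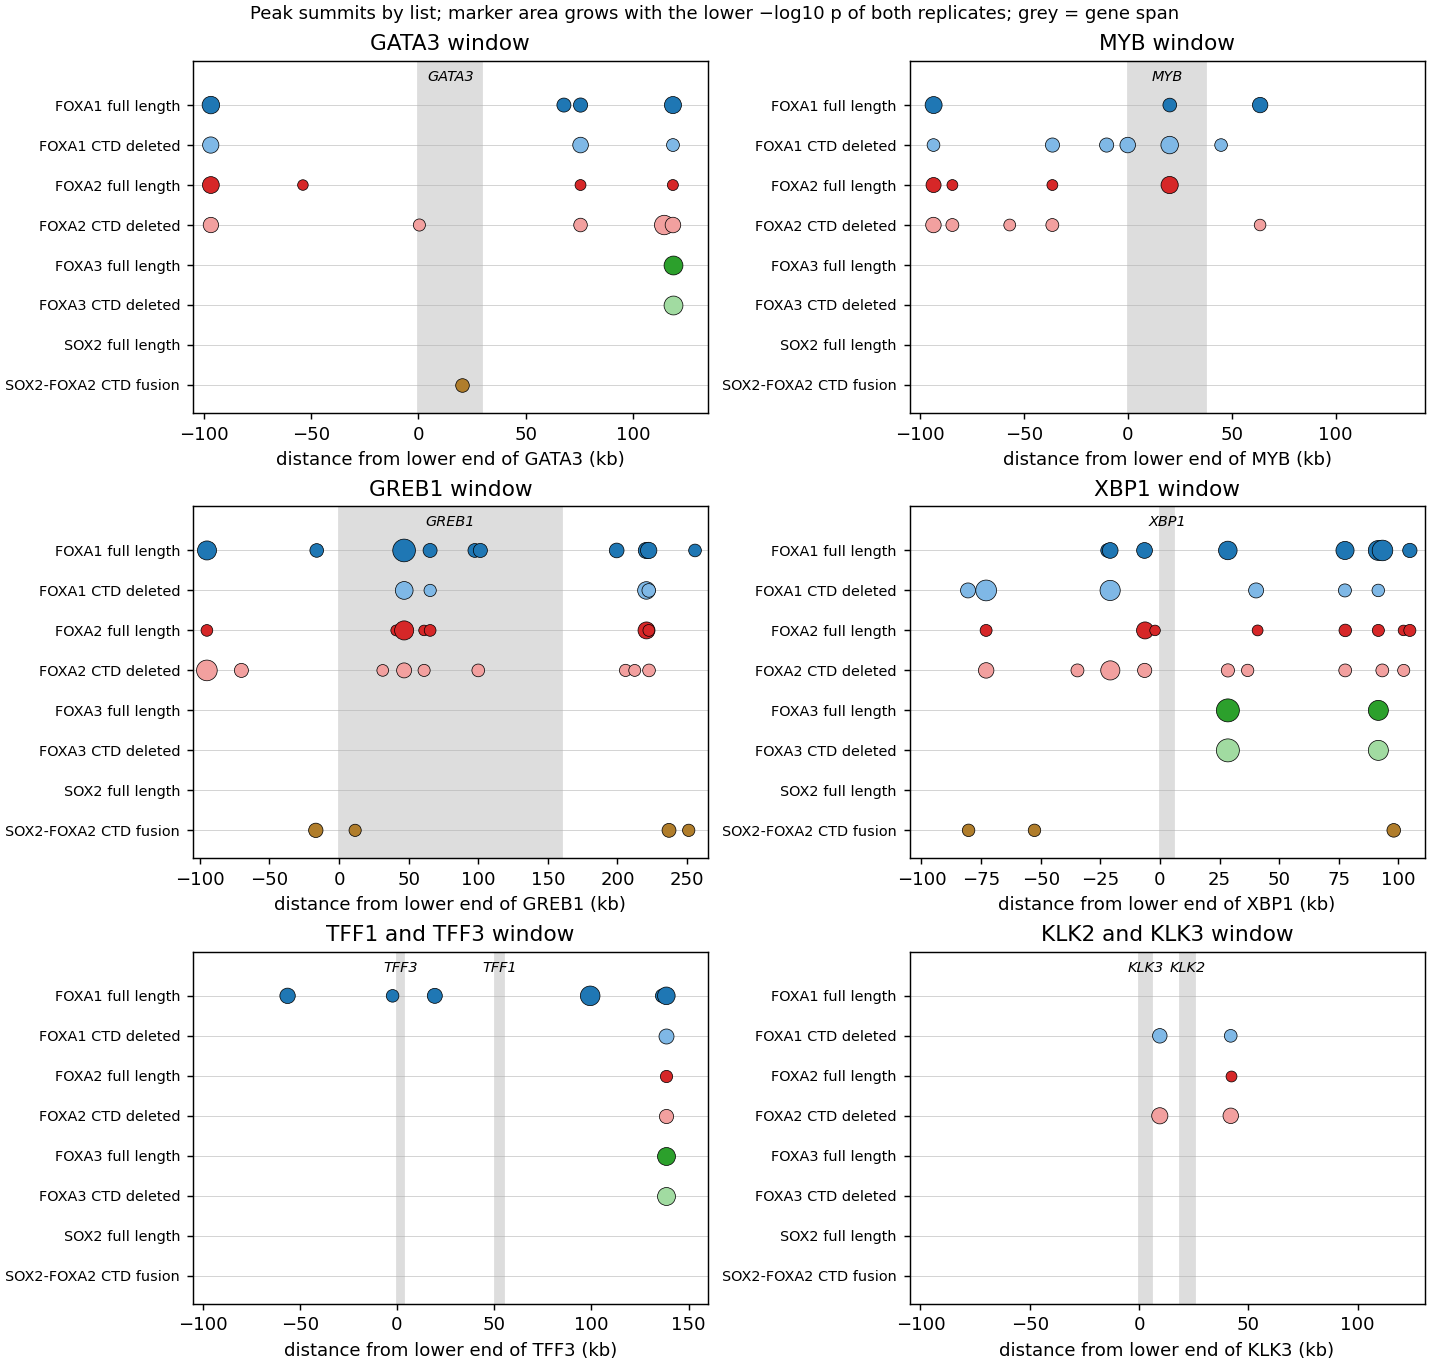
Summits of all peaks near the genes, by distance from the lower-coordinate end of the named gene in kb (x axis) and by combined list (rows), with grey bands for gene spans and marker area growing with the lower −log10 p of both replicates. GREB1 and XBP1 carry peaks along their windows, TFF3 has full-length FOXA1 peaks only, and the kallikrein window holds 2 positions. TMPRSS2 is not drawn because it had no peak.

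TFF1 and TFF3 encode trefoil peptides, small secreted proteins that protect mucosal surfaces. They lie near each other on chromosome 21 (42362282 to 42366535 and 42311667 to 42315409), with TFF2 between them. Their windows held 6 sites, and 5 of these had a peak of full-length FOXA1 alone. Near TFF3 the full-length FOXA1 list had 4 peaks and every other list had 0. At least 4 full-length FOXA1 peaks were found at 37.4% of coding genes. A pattern of full-length FOXA1 and no other FOXA list occurred at 1.17% of coding genes, and full-length FOXA1 with no peak of its CTD-deleted form at 7.79%. The FOXA1 site nearest to TFF3, named here because it is nearest, has its summit 2.26 kb from the lower end. Its −log10 p was 2.62 in one replicate and 5.46 in the other, at an IDR of 0.182, which is outside the limit of the CTD-deleted list. At the stricter limit TFF3 kept 1 peak.

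The strongest site of the trefoil window has its summit at chr21:42411028, inside UBASH3A and 44.5 kb from TFF1. It was in the full-length FOXA1 list only, with −log10 p of 12.2 and 7.55 and an IDR of 0.00826, and ranked 3546 of 37532 peaks by the lower of both values. That IDR is below the limit of every FOXA list, and the list without the CTD has no peak there.

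The other main site of this window was held by all 6 FOXA lists. Its summit is at chr21:42450183, 83.6 kb from TFF1 and 2.5 kb beyond UBASH3A. In FOXA3 its −log10 p was 6.19 and 13.7 in a row that is identical in both FOXA3 lists. Full-length FOXA1 gave 5.95 and 12, and FOXA1 without the CTD 4.08 and 5.95. FOXA2 gave 3.84 and 2.44 at full length and 3.57 and 11.1 without the CTD. Both values of full-length FOXA2 were below both values of FOXA3 and of either form of FOXA1, while those of FOXA2 without the CTD spread across them. Over whole lists the median of the lower −log10 p is also lowest for full-length FOXA2, at 2.24. It is 2.96 for FOXA2 without the CTD, 4.08 and 4.34 for FOXA1, and 7.9 and 7.75 for FOXA3. Within their own lists the FOXA2 peaks ranked 15618 of 45076 at full length and 19007 of 53415 without the CTD. The FOXA3 row ranked 5468 of 6130 and 5493 of 6813, and FOXA1 ranked 7342 of 37532 and 28843 of 50539.

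GREB1, a coactivator of the estrogen receptor, lies at chr2:11482888-11642788 and had the most FOXA sites, 16, in the longest window, 360 kb. Full-length FOXA1 had 10 peaks there, a count reached by 5.06% of coding genes, and FOXA1 without the CTD had 4, reached by 39.6%. The density of full-length FOXA1, 27.8 per megabase, was equalled or passed by 9.9% of coding genes. FOXA2 had 7 and 9, reached by 19.6% and 14.2% of coding genes. FOXA3 had 0 in either form, its nearest summit being 366 kb away.

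The strongest site of GREB1 is inside its span, at chr2:11529630, 46.7 kb from the lower end, and was in all 4 FOXA1 and FOXA2 lists. Full-length FOXA1 gave −log10 p of 11.3 and 10.4, and this peak ranked 1266 of 37532, the highest rank of any full-length FOXA1 peak near the 9 genes. After the CTD deletion FOXA1 gave 6.04 and 11.4. FOXA2 gave 7.12 and 7.57 at full length, ranking 1058 of 45076, and 4.06 and 6.35 without the CTD. For FOXA2 both values at full length were above both values without the CTD, whereas for FOXA1 the replicates overlap. In all, 7 FOXA sites had their summit within the span of GREB1, more than in any other member. Its span, 160 kb, is also the longest of the 9 genes.

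GATA3, the zinc finger factor that sets luminal identity, lies at chr10:8045333-8075198. Counts of peaks were 4 and 3 for FOXA1, 4 and 5 for FOXA2 and 1 and 1 for FOXA3, each as full length and CTD deleted. Of coding genes, 37.4% and 51.2% had at least as many for FOXA1, 44.8% and 38.1% for FOXA2, and 34.7% and 38.9% for FOXA3. The site strongest by the lower of both replicates, at chr10:8159874 and 84.7 kb beyond the end of the gene, was in the list of FOXA2 without the CTD only. Its −log10 p was 9.44 and 7.46 at an IDR of 0.00454.

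About 4 kb further, at chr10:8163937, is the second site held by all 6 FOXA lists. FOXA3 gave −log10 p of 6.94 and 14.5 in a row shared by its lists. FOXA1 gave 5.86 and 5.53 at full length and 2.76 and 12.2 without the CTD. FOXA2 gave 3.62 and 1.78 at full length and 4.46 and 6.66 without the CTD. Here both FOXA2 values without the CTD exceeded both at full length, the opposite of the order at the GREB1 site.

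A single weak FOXA peak reached the GATA3 gene itself. It belonged to FOXA2 without the CTD and had its summit at chr10:8045851, 0.518 kb after the start, with −log10 p of 5.27 and 2.36 and an IDR of 0.198. The peak began after the first promoter window, and no list had a peak over any of the 6 GATA3 promoters.

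XBP1, a factor of the unfolded protein response that estrogen also induces, lies on the minus strand at chr22:28794560-28800569. It had the densest set, with 8 and 6 FOXA1 peaks, 8 and 9 FOXA2 peaks and 2 and 2 FOXA3 peaks. Per megabase, full-length FOXA1 reached 38.8, a density that 2.81% of coding genes equalled or passed. For FOXA2 without the CTD it was 43.7, equalled or passed by 5.61%. For FOXA1 without the CTD and full-length FOXA2 these shares were 11.3% and 6.08%. None of its 15 FOXA sites lay inside the gene. The nearest, named here because it is nearest, was 2.03 kb beyond its 3′ end, in full-length FOXA2 alone, with −log10 p of 1.59 and 1.72.

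The strongest XBP1 site lies 22.5 kb upstream of the gene, with its summit at chr22:28823072. FOXA3 gave −log10 p of 10.7 and 13.2 in the row its lists share, ranking 1162 of 6130 at full length. Full-length FOXA1 gave 6.68 and 8.12, and FOXA2 without the CTD 2.96 and 5.86. FOXA1 without the CTD and full-length FOXA2 had no peak there.

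A second FOXA3 site, at chr22:28886185 inside ZNRF3 and 85.6 kb from XBP1, was in 5 FOXA lists, missing only from FOXA2 without the CTD. FOXA3 gave 7.9 and 12.3 in both lists. FOXA1 gave 8.14 and 7.74 at full length and 2.58 and 7.53 without the CTD. Both values were lower after the deletion, though 7.53 is close to 7.74. The 2.58 is in the first replicate column, which is below the second at 92.5% of that whole list. Full-length FOXA2 gave 2.34 and 2.96.

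MYB encodes a transcription factor of proliferating cells whose transcription estrogen receptor promotes in breast cancer, and lies on the plus strand at chr6:135181308-135219172. FOXA1 had 3 peaks at full length and 6 without the CTD, and FOXA2 had 4 and 5. At least as many were found at 51.0% and 22.9% of coding genes for FOXA1, and at 44.8% and 38.1% for FOXA2. FOXA3 had 0 in either form. The strongest site is inside the gene, at chr6:135201495, about 20.2 kb from the start. The CTD-deleted FOXA1 gave −log10 p of 5.86 and 15.3 there, full-length FOXA1 8.41 and 3.27, and full-length FOXA2 5.63 and 5.86. The FOXA1 values with and without the CTD overlap.

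The MYB promoter was the 1 promoter among the 11 windows with a peak over it, and only FOXA1 without the CTD had that peak. It spans chr6:135181143-135181506 with the summit 3 bp before the start site, next to the forkhead core shown above. Its −log10 p was 4.44 and 9.59 and its IDR 0.00415, within the limit of the full-length list, in which it was absent. Of all peaks of FOXA1 without the CTD, 41.7% were overlapped by the full-length list. The promoter peak ranked 23782 of 50539 peaks, in the middle of its list. FOXA1 without the CTD had a peak over the promoter of 2.12% of 15812 genes, and full-length FOXA1 over 8.73%. Of 369 promoters under a peak of FOXA1 without the CTD, 14.4% held the forkhead core, against 4.64% of the others. For full-length FOXA1 these shares were 7.65% of 1633 and 4.58%. The full-length list reaches an IDR of 0.2 and the other ends at 0.0501, so the promoter shares of both lists are not like for like.

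KLK3 encodes prostate-specific antigen, and KLK2 a related secreted protease. They lie beside each other on chromosome 19, at 50854915 to 50860764 and 50873439 to 50880567. Full-length FOXA1 had no peak within 100 kb of either, and its nearest summit was 108 kb from KLK3. Its CTD-deleted form had 2 peaks, a pattern of CTD-deleted only that 6.64% of coding genes showed. FOXA2 had 1 at full length and 2 without the CTD, and FOXA3 had 0. At least as many peaks were found at 65.8% of coding genes for FOXA1 without the CTD, and at 85.0% and 72.8% for FOXA2.

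The 2 peaks stand for both genes, so KLK2 and KLK3 are 1 observation. The stronger site lies between the genes, at chr19:50864413, 3.65 kb beyond KLK3. FOXA1 without the CTD gave −log10 p of 3.75 and 11.2 at an IDR of 0.00643, and FOXA2 without the CTD gave 4.88 and 7.53 at 0.0159. Either IDR is within the limit of the full-length list of the same factor, and neither full-length list held the site. Such absence is common, since the full-length lists overlapped 41.7% of all FOXA1 and 43.2% of all FOXA2 peaks without the CTD. The other site, named because the window holds only these 2, lies at chr19:50896881, 16.3 kb beyond KLK2. FOXA1 without the CTD gave 2.69 and 9.59 there and FOXA2 without the CTD 4.39 and 5.8. Full-length FOXA2 gave 2.27 and 1.74 at an IDR of 0.251, just past the limit of its CTD-deleted list.

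TMPRSS2, a membrane protease of prostate epithelium, lies at chr21:41464305-41508158. The nearest summit was 480 kb away, in full-length FOXA2. It was 618 kb in full-length FOXA1, 653 kb in FOXA1 without the CTD, 618 kb in FOXA2 without the CTD and 942 kb in both FOXA3 lists. A count of 0 in these lists does not exclude weaker binding than they record.

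The replicates were unequal in one list above all. At all 22 peaks of FOXA1 without the CTD near the 9 genes, the second replicate column had the higher −log10 p, as at 92.5% of that whole list. In full-length FOXA1 this held for 16 of 31 peaks and 51.2% of the list. For FOXA2 it was 11 of 25 at full length (60.4% of the list) and 19 of 31 without the CTD (49.9% of the list). It also held for all 4 peaks of either FOXA3 list, as for 78.4% and 80.2% of those lists. The columns carry no replicate number, and read numbers were not used here. The part of this difference in the FOXA1 comparison was not tested.

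**Figure D4:**
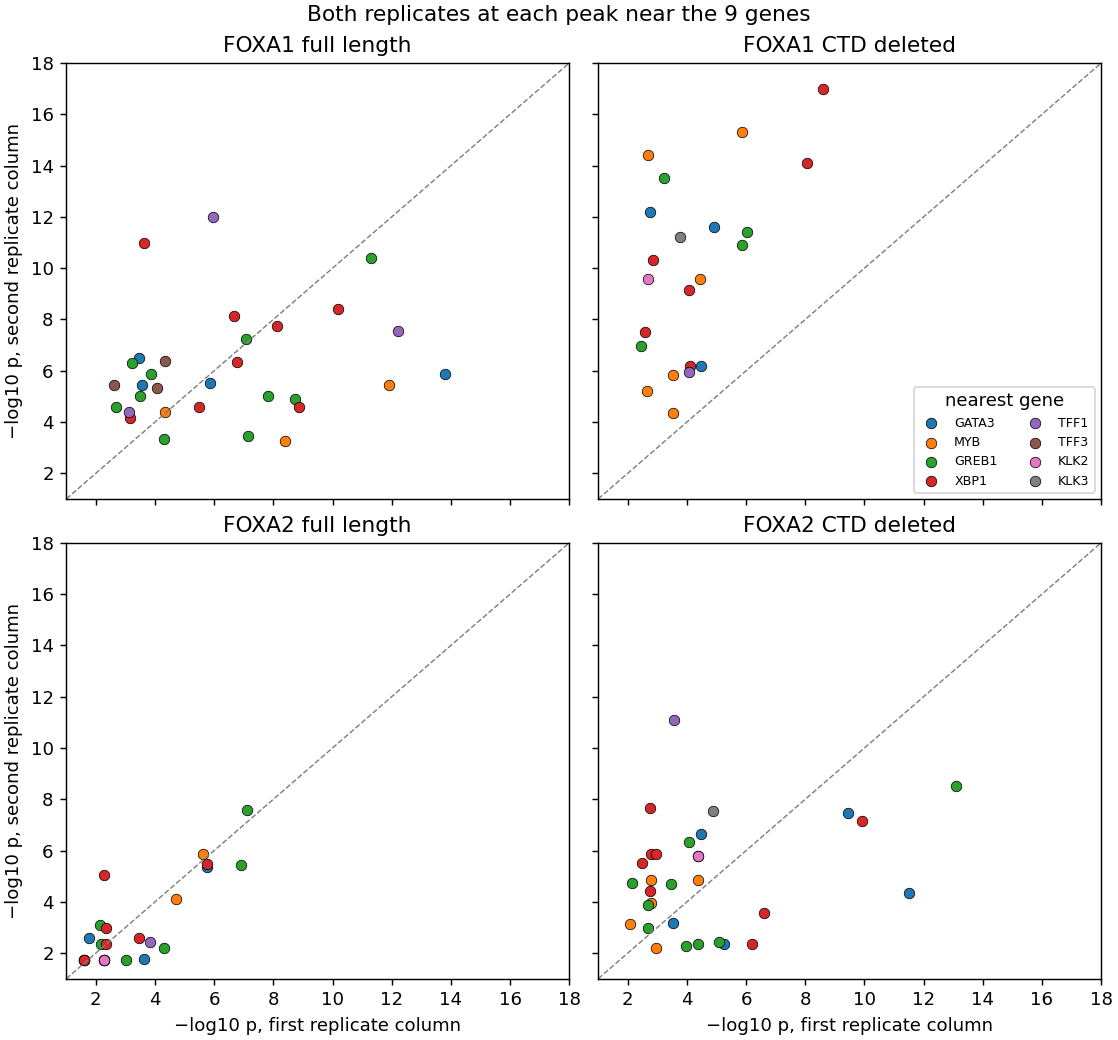
The −log10 p of each peak near the 9 genes in the first (x axis) and second (y axis) replicate column, for the 4 FOXA1 and FOXA2 lists, with colours for the nearest gene and a dashed line of equality. All 22 points of FOXA1 without the CTD lie above the line, while 16 of 31 do for full-length FOXA1.

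Of the 31 full-length FOXA1 peaks, 13 (41.9%, exact 95% interval 24.5 to 60.9) were overlapped by a peak of the CTD-deleted list, beside 56.0% over all peaks. At the stricter limit of the pair the share was 69.2%. No share over all peaks is given at that limit, so 69.2% has no background here. For FOXA2 in the lists as deposited, the share was 16 of 25 (64.0%, 42.5 to 82.0), beside 51.3% over all. Both intervals include the share over all peaks. In reverse, full-length FOXA1 overlapped 13 of 22 CTD-deleted peaks (59.1%, 36.4 to 79.3), beside 41.7% over all. Full-length FOXA2 overlapped 16 of 31 (51.6%, 33.1 to 69.8), beside 43.2%. Between paralogs at full length, 15 of 31 FOXA1 peaks (48.4%, 30.2 to 66.9) were overlapped by FOXA2, beside 47.2% over all, and 15 of 25 FOXA2 peaks (60.0%, 38.7 to 78.9) by FOXA1, beside 39.5%. Without the CTD, 13 of 22 FOXA1 peaks (59.1%, 36.4 to 79.3) were overlapped by FOXA2, beside 45.7%, and 13 of 31 FOXA2 peaks (41.9%, 24.5 to 60.9) by FOXA1, beside 43.4%. Each of these intervals includes the share over all peaks. All 4 FOXA3 peaks were rows that the FOXA3 lists hold in identical form, as are 5012 of the 6130 full-length rows. The FOXA3 lists therefore say nothing about the effect of the deletion at these genes.

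SOX2, an HMG-box factor of stem cells from another family, had no peak within 100 kb in its combined list of 1375. Joined to the FOXA2 CTD it had 8. They lay in GATA3 (1), around GREB1 (4) and around XBP1 (3), and 7 of the 8 had no FOXA peak at the same place, as did 62.3% of all 7844 fusion peaks. A count of 4 or more fusion peaks was found at 3.24% of coding genes, and of 3 or more at 6.36%.

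All 8 fusion peaks were weakly reproducible, with an IDR of 0.494 to 0.861 and a lower −log10 p of 2.41 to 3.66. None lies within the IDR limit of the SOX2 list, so the 8 against 0 was obtained at unequal limits. In GATA3 the summit was at chr10:8065652, where both values were near 3.2 (3.2 and 3.29). Near GREB1 the summits were at chr2:11466223 (3.66 and 3.86), chr2:11494473 (2.41 and 3.93), chr2:11719892 (5.47 and 3.39) and chr2:11734038 (5.86 and 2.47). The first is 0.062 kb outside the span of E2F6, the second inside GREB1 and the last pair inside LPIN1. Near XBP1 they were at chr22:28741961 (2.55 and 3.27), 0.071 kb outside the span of HSCB, at chr22:28892637 inside ZNRF3 (3.2 and 3.29) and at chr22:28714320 inside CHEK2 (8.33 and 2.57). The last overlapped a peak of FOXA1 without the CTD, with values of 4.06 and 9.15. Of the fusion peaks, 1 of 8 (12.5%, 0.316 to 52.7) overlapped that list, beside 19.4% of all fusion peaks.

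In a list of 26 further hormone-response genes, FOXA1 and FOXA2 peaks lay near almost every gene. It comprised 16 luminal breast genes such as ESR1, the estrogen receptor, PGR, the progesterone receptor, and AGR2, and 10 prostate genes such as FKBP5 and ACP3. FOXA1 had a peak within 100 kb of 24 of them at full length and of all 26 without the CTD (92.3% and 100%), beside 83.4% and 82.3% of coding genes. FOXA2 likewise had a peak at 24 and 26, beside 85% and 86.4%. FOXA3 had a peak at 10 and 13 (38.5% and 50.0%, beside 34.7% and 38.9%), the fusion at 14 (53.8%, beside 35.5%) and SOX2 at 0 (beside 1.46%). ESR1 had 7 FOXA1 peaks at full length and 18 without the CTD, and 8 and 18 of FOXA2. Its counts are the highest of the 26 in both CTD-deleted lists of these factors, and no share of coding genes reaching them was computed. Some other genes had fewer FOXA1 peaks without the CTD than at full length, among them SLC45A3 and PMEPA1. KLK4, which is on this list, shares the kallikrein sites and adds none. The windows of the 26 genes were not merged, so other genes of the list that lie close together can share peaks. These counts carry the same unequal limits as those of the 9 genes and have no test.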

How the data were processed

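ChIP-seq with a Flag antibody covered 17 samples: 8 factor groups with 2 replicates each and 1 input. Groups came from the sample titles. The submitters' processing notes name build hg38, FastQC 0.10.1, Trim Galore, Bowtie2 2.4.4, SAMtools 0.1.18, MACS2 and deepTools 2.4.1, without parameters. Of 14 deposited lists, 10 were used and 4 were copies. Each group has 1 combined list in the 20-column layout of the IDR program, made from both replicates. The score deposited by the authors is 125 times log2 of 1 over the IDR, up to 1000. The deposited −log10 p of each replicate is the authors' own, and its lower value ranked the peaks. Lists of the first replicate of SOX2 and the fusion also give, as a ratio, the fold enrichment the authors' caller computed against nearby background.

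Gene spans came from the RefSeq table of GRCh38.p14 and promoters from RefSeq on that build. Overlap meant at least 1 bp, and overlapping peaks of all lists were merged into sites. Computation used Python 3.11.15, pandas 2.3.3, numpy 2.4.6 and scipy 1.17.1, and was checked on simulated data. Intervals are exact Clopper-Pearson 95% intervals and cover counting error over peaks only, since depth is unknown. With 1 list per group no test between replicates was made.

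The members, the list of 26 genes and the rules were chosen with earlier results of these data known. Sites named are the strongest of each locus, those in at least 5 FOXA lists or in the fusion or SOX2 list, and those within 1 kb of a gene end or in a promoter. The reason is given with any other site that is named. Alternatives were a window of 50 kb, any overlap of the peak with the window, an IDR of at most 0.01 and equal list lengths. Further ones were 50% reciprocal overlap, summits within 100 bp, leaving out rows both FOXA3 lists hold, and the first-replicate lists. The stricter IDR limit of a pair was added after seeing the data. Motifs, planned for the summits, were searched in promoters only, as a genome sequence was not used here. The labels give the doxycycline dose per ml in one field and per µl in another.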

Additional observations from a re-analysis of the deposited data

Results flagged for a closer look

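Peaks near the 9 genes appeared in the first-replicate lists of SOX2 and of the fusion, which the comparisons above do not use. The SOX2 list of 13977 peaks held 5, with 3 at GREB1 and 2 at XBP1 and a fold enrichment of 2.38 to 4.45, where the combined SOX2 list held 0. Of these 5, 1 overlapped a FOXA site. The fusion list of 42705 peaks held 16, over 6 of the 9 genes, with a fold enrichment of 2.55 to 5.55, where its combined list held 8. Of these, 6 overlapped a combined fusion peak and 2 a FOXA site. In the first-replicate lists 42.1% (SOX2) and 79.3% (fusion) of coding genes had a peak within 100 kb. These lists rest on 1 replicate each, and no control list was used here.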

How the results depend on the processing

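Over 20 results, 58 of 90 alternatives stayed within 1.5 times the value reported, or within its interval for a share, and 32 did not. Among the 58 are the alternatives that counted any overlap of a peak with the window, which changed no value. They also include SOX2 counts of 0 that stayed 0, so 58 of 90 is no measure of robustness. The direction between full length and CTD deleted turned for FOXA1 at an IDR of at most 0.01 and at the stricter limit of the pair. For FOXA2 it turned with lists of equal length, on 1 peak against 0. With windows of 50 kb, peaks near the genes numbered 17 and 12 for FOXA1 (full length, CTD deleted), 11 and 16 for FOXA2, 1 and 1 for FOXA3 (1 gene in each) and 3 for the fusion. At an IDR of at most 0.01 they numbered 3 and 9 for FOXA1, 0 and 3 for FOXA2 (0 and 3 genes) and 0 for the fusion (0 genes). The whole lists are unequal in the same direction at that limit. They hold 3438 and 26826 FOXA1 peaks and 0 and 6523 FOXA2 peaks there. With every list held to its 1375 strongest peaks, they numbered 1 and 0 for FOXA1, 1 and 0 for FOXA2, 1 and 1 for FOXA3 and 0 for the fusion. At the stricter limit of a pair, full-length FOXA1 had 13, full-length FOXA2 16 and the fusion 0 (0 genes), and the shared part of full-length FOXA1 was 69.2%. In lists of the first replicate alone, SOX2 had 5 and the fusion 16. Without the rows both FOXA3 lists hold, full-length FOXA3 had 0 peaks, so its overlap share has no value.

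No paired analysis was possible because each group has 1 combined list and its replicate columns carry no number. Leaving out a replicate was possible only for SOX2 and the fusion, through the first-replicate lists. Depth is unknown, and with it the smallest occupancy each list can show.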
